A study of Homo sapiens with 2 samples.

Results

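The 10 genes described here belong to the ends and the centre of the sarcomere, the contractile unit of heart muscle, and were followed in stem cell-derived cardiomyocytes. They were picked by symbol from the 36601 genes of the deposited matrix, and all 10 were found: TCAP, NEXN, LDB3, MYOZ2, CSRP3, TRIM55, MYOM1, MYOM2, ACTN2 and TMOD1. The cells descended from H9, an established human embryonic stem cell line, and carried gCaMP6f, a fluorescent calcium reporter. They had been differentiated for 15 days, frozen and thawed. Each sample was stained with a hashtag, an antibody that carries an oligonucleotide, and the stained cells were mixed into 1 pool for 10x Genomics capture, with RNA read out as unique molecular identifiers (UMIs). The labels do not say what any of the 13 hashtags marked. The hashtags were therefore not taken as replicates. All groups below are groups of cells within 1 pool, no test was run, and each interval is an exact 95% one for counting error alone.

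In a myofibril, thin filaments are anchored at the Z-disc and thick filaments are tied together at the M-band. The Z-disc is built on alpha-actinin crosslinks, to which LIM-domain, PDZ-domain and titin-binding proteins attach, and several of these also take part in sensing stretch. Mutations in many of these genes cause cardiomyopathy, and sarcomeres are taken apart when cardiomyocytes divide.

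Among the members, ACTN2 encodes the cardiac alpha-actinin that crosslinks thin filaments at the Z-disc, and LDB3 (also called ZASP or Cypher) and MYOZ2 (calsarcin-1) encode proteins that bind it. TCAP encodes telethonin, which joins the Z-disc ends of titin molecules, and CSRP3 encodes muscle LIM protein, a Z-disc protein that has also been found in the nucleus. NEXN encodes nexilin, an actin-binding protein. MYOM1 and MYOM2 encode myomesins, which crosslink thick filaments at the M-band, and TRIM55 (MuRF2) encodes a ubiquitin ligase found at microtubules and the M-band. TMOD1 encodes tropomodulin, which caps the pointed ends of thin filaments.

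The gene and hashtag libraries shared all 24038 barcodes of the matrix. After filtering and doublet removal 19309 cells remained, of which 14690 were cardiomyocyte-like, with a median of 12634.5 UMIs. Another 2723 cells fell into other classes (stromal-, epithelial-, endoderm-, epicardial- and endothelial-like, and 1 unnamed cluster led by GABRP and TFAP2A), with a median of 11561 UMIs. A low-depth group of 1896 cells (median 2145.5 UMIs) was left out. The sum of cardiomyocyte markers (12 genes) was 54631 CPM, counts per 1000000 UMIs, in cardiomyocyte-like cells, against 8001 CPM in the other classes. In the low-depth group this sum was at 82.0% of the cardiomyocyte-like level, with members between 44.5% (CSRP3) and 169% (LDB3). Levels below are CPM over the summed cells of a group. They are not adjusted for transcript length, so they were compared between groups for 1 gene, never between genes. A gene was measured at 10 CPM and 10 counts or more on the higher side, and was called higher or lower from a ratio of 1.5. MYOM2 reached 10 CPM only on the side where it was high, so its values are given but it is left out of the counts of called members.

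Promoter sequence is shown for the 3 members in which a muscle motif with a low background share lay just ahead of RefSeq's start. Of the 10 members, 6 matched RefSeq's promoter table (GRCh38.p14), with 8 windows in all, each 250 bases before to 50 after a start. The motifs searched, on both strands, were the CArG box bound by serum response factor, the MEF2 site, MCAT with the letters CATTCC, the site of GATA factors as AGATAA, and the E-box as CANNTG. Over all 35116 promoters of that length, 1.29% held a CArG box, 2.99% a MEF2 site, 14.03% MCAT, 10.3% GATA and 68.7% an E-box. Capitals mark every match except E-boxes, and each stretch is the 250 bases that end 1 base before the start. LDB3 lies on the plus strand at chr10:86668261-86668510, MYOM1 on the minus strand at chr18:3219969-3220218, and MYOZ2 on the plus strand at chr4:119135582-119135831.
LDB3: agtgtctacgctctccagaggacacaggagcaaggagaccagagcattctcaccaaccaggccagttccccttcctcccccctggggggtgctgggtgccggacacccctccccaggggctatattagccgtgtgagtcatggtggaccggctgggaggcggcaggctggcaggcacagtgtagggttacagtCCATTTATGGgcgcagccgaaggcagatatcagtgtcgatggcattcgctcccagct
MYOM1: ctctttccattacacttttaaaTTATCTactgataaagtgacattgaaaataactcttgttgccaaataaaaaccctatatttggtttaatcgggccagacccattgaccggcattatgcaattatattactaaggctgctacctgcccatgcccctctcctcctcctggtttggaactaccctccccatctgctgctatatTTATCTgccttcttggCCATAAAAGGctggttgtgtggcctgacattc
MYOZ2: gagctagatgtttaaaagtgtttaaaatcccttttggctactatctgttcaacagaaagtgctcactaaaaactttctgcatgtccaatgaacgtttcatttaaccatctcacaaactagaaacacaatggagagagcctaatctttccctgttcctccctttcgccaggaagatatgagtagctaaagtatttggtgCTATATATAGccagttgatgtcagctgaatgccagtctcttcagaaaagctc
In LDB3 a CArG box spanned bases -57 to -48 from the start, and the second LDB3 window overlapped this one and held the same match. In MYOM1 a CArG box spanned bases -32 to -23, with GATA matches at -228 to -223 and -48 to -43. MYOZ2 had a MEF2 site at -52 to -43, followed by E-boxes at -41 to -36 and -31 to -26. Outside these 3 genes, NEXN held 1 MCAT match at -80 to -75 and ACTN2 held 3 E-boxes, and no CArG box or MEF2 site was found in the windows of NEXN, ACTN2 or TMOD1. A match is a run of letters and was not tested for binding. GENCODE 29 places the first bases of these 3 genes inside the printed stretches, so the distances hold for RefSeq's starts. By GENCODE's starts the CArG boxes of LDB3 and MYOM1 lie inside the gene, and the MEF2 site of MYOZ2 spans the start.

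On GRCh38, GENCODE 29 places ACTN2 at chr1:236686454-236764631, NEXN at chr1:77888513-77943895, MYOZ2 at chr4:119135784-119187789 and TRIM55 at chr8:66126896-66175487. It places MYOM2 at chr8:2045040-2165552, TMOD1 at chr9:97501180-97601748, LDB3 at chr10:86668449-86736068 and CSRP3 at chr11:19182037-19210571. TCAP lies at chr17:39664187-39666555 and MYOM1 at chr18:3066807-3220108. The antisense genes NEXN-AS1 and CSRP3-AS1 overlap 2 members, and whether the counting used strand is not given in the sources used here. NEXN-AS1 had 2.37 CPM in cardiomyocyte-like cells, against 1.67 CPM in the other classes, and CSRP3-AS1 had 1 count in all cardiomyocyte-like cells.

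Which cells carried these transcripts? All 9 measured members were at least 1.5-fold higher in cardiomyocyte-like cells than in the other classes, where 13.4% of 9458 measured genes were higher and 25.6% were lower. The members' median ratio was 6.64, against 0.880 over all genes, and the 15 sarcomere reference genes (myosins, troponins, actins, TPM1, TTN and MYBPC3) had a median of 6.63. Most of these reference genes are among the cardiomyocyte markers that named the class, so their high ratio follows in part from its definition. CSRP3 had the largest ratio, with 478 CPM in cardiomyocyte-like cells, against 44.7 CPM in the other classes (10.7-fold, 10.2 to 11.3). TCAP followed with 239 CPM in cardiomyocyte-like cells, against 24.3 CPM elsewhere (9.87-fold, 9.22 to 10.6). MYOZ2 was 9.65-fold higher (8.99 to 10.4), with 215 CPM in cardiomyocyte-like cells, against 22.3 CPM in the rest. The 3 genes thus sat at the top of the list together with ACTN2, which had 454 CPM in cardiomyocyte-like cells, against 58.6 CPM in the other classes (7.75-fold, 7.42 to 8.10).

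The remaining members were less restricted. LDB3 reached 458 CPM in cardiomyocyte-like cells, against 69.0 CPM in the other classes (6.64-fold, 6.37 to 6.92). TMOD1 had 199.9 CPM in cardiomyocyte-like cells against 33.9 CPM (5.90-fold, 5.57 to 6.26), and MYOM1 had 264 CPM against 53.6 CPM (4.92-fold, 4.70 to 5.16). TRIM55 was 3.81-fold higher (3.60 to 4.04), with 137 CPM in cardiomyocyte-like cells, against 36.0 CPM elsewhere. NEXN had the smallest ratio, 2.84-fold (2.75 to 2.93), from 360.1 CPM in cardiomyocyte-like cells, against 127 CPM in the other classes. MYOM2 was too low to be measured, with 7.47 CPM in cardiomyocyte-like cells, against 1.47 CPM (51 counts) in the other classes. Within 12 hashtags that held enough cells of both kinds, the ratio was above 1 in all 12 for the 9 measured members and in 9 of 12 for MYOM2. How much of the level in other classes was free RNA from lysed cardiomyocytes was not tested.

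Per cell, the direction was the same for all 10 members after every cell was thinned to 3000 UMIs. CSRP3 then had a UMI in 53.5% of 14293 cardiomyocyte-like cells and 7.15% of 2559 other cells, TCAP in 40.6% and 5.12%, and LDB3 in 72.3% and 15.4% of the same cells. For NEXN the shares were 61.4% of cardiomyocyte-like cells and 24.4% of other cells. MYOM2 had a UMI in 2.85% of cardiomyocyte-like cells and 0.586% of other cells, so most cells gave no reading for it.

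The other classes were also taken 1 by 1, beside the summed cardiomyocyte marker genes. NEXN had 51.0% (46.9 to 55.3) of its cardiomyocyte-like level in epicardial-like cells and 46.8% (45.0 to 48.7) in stromal-like cells. In those classes the summed cardiomyocyte markers were at 9.58% and 17.1% of their cardiomyocyte-like level, and TCAP was at 3.53% and 9.34%. NEXN thus kept a larger share of its level there than the cardiomyocyte markers did. In epithelial-like cells NEXN was at 18.4% beside 7.39% for the summed markers, but single markers there ranged from 5.25% to 21.2%. In the unnamed cluster NEXN was at 19.2% beside 4.96% for the summed markers, with single markers from 3.12% to 17.5%. TRIM55 was at 91.2% (83.4 to 99.5) of its cardiomyocyte-like level in the 271 cells of the unnamed cluster led by GABRP and TFAP2A, where TCAP stood at 4.06%. MYOM1 and TMOD1 were at 30.2% and 22.3% in stromal-like cells, within the range of single markers there, 9.98% to 34.4%. In endoderm-like cells all 10 members lay between 20.8% and 34.7%, near the 25.2% of the summed markers.

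**Figure D1:**
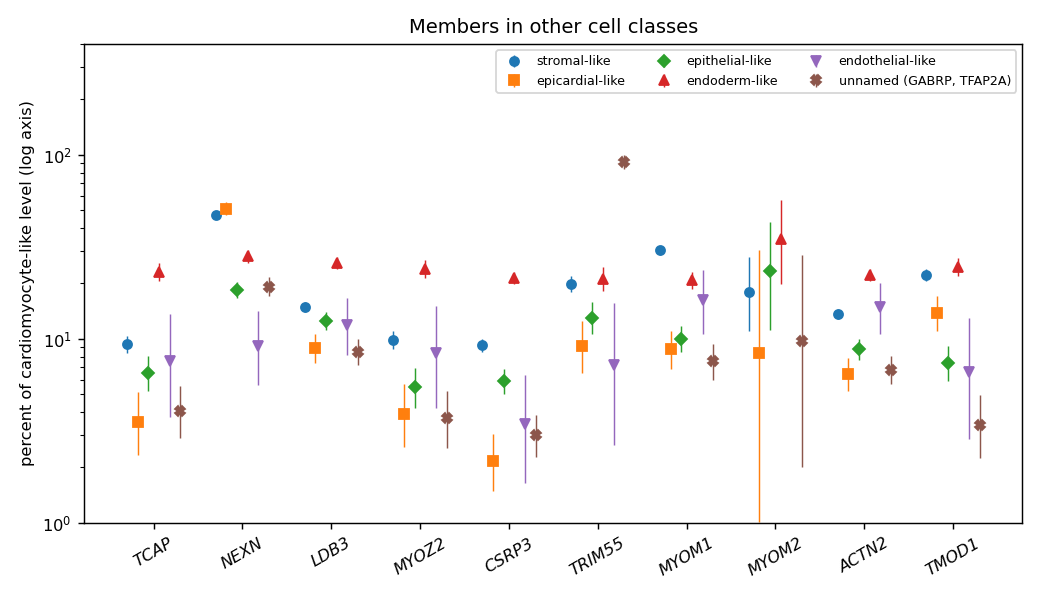
Level of each member in 6 other cell classes as a percent of its level in cardiomyocyte-like cells (log axis), with 95% counting intervals. NEXN in stromal- and epicardial-like cells (46.8% and 51.0%) and TRIM55 in the unnamed cluster (91.2%) lie above the other members of those classes. MYOM2 in endothelial-like cells had 0 counts and is not drawn.

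Partner genes from 4 lists, chosen like the members with earlier results known, were set in the same comparison. Of 22 measured further Z-disc genes, 16 were higher in cardiomyocyte-like cells and 4 were lower. CRYAB, a small heat shock protein, had 312 CPM in cardiomyocyte-like cells, against 36.5 CPM elsewhere (8.54-fold), while the LIM-domain gene PDLIM3 was 2.49-fold lower, with 33.5 CPM against 83.4 CPM. Of 18 measured M-band genes, 15 were higher and none lower, led by the muscle creatine kinase CKM (12.2-fold) and the ubiquitin ligase TRIM63 (12.1-fold). The M-band list includes TTN and MYBPC3, which are among the markers that named the class. Among 13 measured genes of thin filament ends and the nebulin family, 6 were higher and 2 lower. LMOD2, which lengthens thin filaments, was 12.5-fold higher, whereas TMOD3, the widely expressed relative of TMOD1, was 4.33-fold lower. Of 13 measured non-muscle and smooth muscle relatives, 3 were higher and 8 lower, with CSRP2, a relative of CSRP3, 1.74-fold higher.

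Cardiomyocyte-like cells were then split by chamber markers: 324 cells with SHOX2 (pacemaker-type), 1708 with NR2F2 and no SHOX2 (atrial-type), and 6018 with HEY2 and no UMI of the other two (ventricular-type). SHOX2 marked at 1 UMI, the others at 2, and 142 of the SHOX2, 597 of the NR2F2 and 1488 of the HEY2 cells sat exactly at that count. The NR2F2 and SHOX2 sets were not cleared of HEY2. They include 348 cells that passed both the HEY2 and the NR2F2 count. The sum of pacemaker genes was 381 CPM in SHOX2-positive cells and 36.2 CPM in HEY2-positive cells, and the sum of ventricular genes was 2256 CPM and 4134 CPM. These sums include SHOX2 and HEY2 themselves, so part of each difference follows from the selection. Most of the ventricular sum was MYL3, not used to select, with 2107 CPM in SHOX2-positive and 3727 CPM in HEY2-positive cells. The name atrial-type rests on the selection by NR2F2 alone. Median depth was 9958.5 UMIs in SHOX2-positive, 10399.5 in NR2F2-positive and 15728 in HEY2-positive cells.

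Against HEY2-positive cells, 2 of 9 members were higher in NR2F2-positive cells and none was lower, where 5.09% of 8470 genes were higher and 1.65% lower. MYOM2, outside this count, had 14.1 CPM in NR2F2-positive cells and 3.05 CPM in HEY2-positive cells (4.62-fold, 3.97 to 5.38). TRIM55 had 201 CPM in NR2F2-positive and 112 CPM in HEY2-positive cells (1.80-fold, 1.74 to 1.86). NEXN had 438 CPM in NR2F2-positive and 287 CPM in HEY2-positive cells (1.52-fold, 1.49 to 1.56), just past the threshold, and under it after TMM scaling (1.40) or a stricter cell filter (1.48). CSRP3 lay just under it at 1.43-fold, with 546 CPM in NR2F2-positive and 382 CPM in HEY2-positive cells. MYOZ2 (1.31), MYOM1 (1.28), ACTN2 (1.28) and LDB3 (1.12) had ratios above 1, TMOD1 was at 0.947 and TCAP at 0.819, with 193 CPM in NR2F2-positive and 236 CPM in HEY2-positive cells. With markers counted in cells thinned to 5000 UMIs, which evens out depth, NEXN had a ratio of 1.93 and TCAP of 0.659.

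The same comparison was made inside each of 8 hashtags with at least 20 cells on both sides. NEXN, MYOZ2, TRIM55, MYOM2 and ACTN2 were higher in NR2F2-positive cells in 8 of 8, with median ratios of 1.92, 1.43, 2.10, 4.97 and 1.34. CSRP3 and MYOM1 were above 1 in 7 of 8, with medians of 1.81 and 1.60. TCAP was below 1 in 7 of 8, with a median of 0.739 and a range of 0.512 to 2.07. Of the NR2F2-positive cells, 65.3% lay in cardiomyocyte-like cluster 1, and Hashtag14 and Hashtag15 held many of them, with 32.6% and 53.3% of their cardiomyocyte-like cells positive. The sum of atrial genes, NR2F2 included, was 532 CPM in cluster 1 and 934 CPM in cluster 11, which was led by SHOX2.

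SHOX2-positive cells carried more of the same 2 of 9 measured members: TRIM55, with 208 CPM in SHOX2-positive and 112 CPM in HEY2-positive cells (1.87-fold, 1.74 to 2.00), and NEXN, with 511 CPM and 287 CPM (1.78-fold, 1.70 to 1.86; 1.45 under the stricter filter). No member was lower, and 9.25% of 8656 genes were higher and 3.18% lower. MYOM1 was at 1.26, and LDB3, ACTN2, CSRP3, MYOZ2, TMOD1 and TCAP lay between 0.795 and 0.971. MYOM2 had 9.03 CPM in SHOX2-positive and 3.05 CPM in HEY2-positive cells and was not measured. Of the 324 SHOX2-positive cells, 159 lay in cluster 11 and 81 in cluster 1, against 1 and 231 of the 6018 HEY2-positive cells. NR2F2-positive and SHOX2-positive cells share the HEY2-positive cells as their reference, so the 2 comparisons are not independent.

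Set directly against NR2F2-positive cells, SHOX2-positive cells had none of 9 members lower or higher, where 1.9% of 8680 genes were lower and 3.47% higher. MYOM2 had 9.03 CPM in SHOX2-positive and 14.1 CPM in NR2F2-positive cells (1.56-fold lower, 1.12 to 2.22), on 40 counts in SHOX2-positive cells. MYOZ2 and CSRP3 lay just inside the threshold, at 1.49-fold and 1.47-fold lower. MYOZ2 had 178 CPM in SHOX2-positive cells against 265 CPM, and CSRP3 had 370.3 CPM against 546 CPM. NEXN, TRIM55, MYOM1 and TCAP had ratios between 0.970 and 1.17.

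IRX1, a homeobox gene of the ventricular septum and trabeculae in mouse, split the cells another way: 1549 had at least 2 UMIs of it (702 exactly 2) and 11468 had none. None of 9 members was called, where 1.4% of 8339 genes were higher and 1.06% lower. MYOM2 had 12.8 CPM in IRX1-positive and 6.75 CPM in IRX1-negative cells (1.89-fold, 1.67 to 2.14). TCAP had 283 CPM in IRX1-positive cells and 227 CPM in IRX1-negative cells (1.25-fold), and CSRP3 had 552 CPM and 466 CPM (1.18-fold). The other 7 members lay between 0.846 and 0.982. Inside 9 hashtags MYOM2 was above 1 in 8, with a median ratio of 2.39, and ACTN2 was below 1 in all 9.

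**Figure D2:**
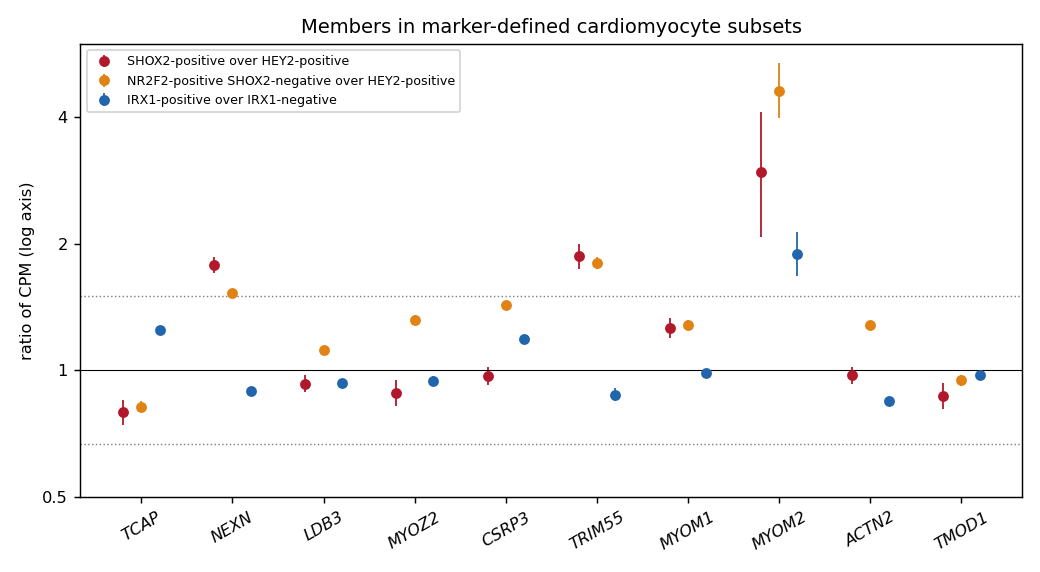
Ratio of CPM for each member (log axis) between SHOX2-positive and HEY2-positive, NR2F2-positive and HEY2-positive, and IRX1-positive and IRX1-negative cells, with 95% counting intervals. Dotted lines mark 1.5-fold in either direction. MYOM2 (4.62), TRIM55 (1.80) and NEXN (1.52) stand above the upper line for NR2F2-positive cells.

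Of 22 measured further Z-disc genes, 9 were higher and 1 lower in NR2F2-positive than in HEY2-positive cells. The stretch-responsive gene ANKRD1 had 2072 CPM in NR2F2-positive and 472 CPM in HEY2-positive cells (4.39-fold), SYNPO2L 223 CPM and 77.2 CPM (2.89-fold), and FHL2 was 1.59-fold lower. In SHOX2-positive cells 8 of 23 were higher, led by PDLIM3 with 163 CPM against 18.6 CPM in HEY2-positive cells (8.78-fold), and 2 lower. M-band genes had 2 of 18 higher (CAPN3 and SPEG) and 2 lower (CKMT2 and FHL2) in both. LMOD1 was the nebulin and thin filament gene with the largest ratio, 3.63 in SHOX2-positive and 2.48 in NR2F2-positive cells. The sum of pericyte or smooth muscle markers was 2175 CPM in SHOX2-positive, 1565 CPM in NR2F2-positive and 848 CPM in HEY2-positive cells, and the sum of stromal markers was 108 CPM, 84.1 CPM and 36.9 CPM in the same groups. Their part in these values was not tested.

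Clustering without the members, their partners and listed sets of 32 mitotic and 34 S phase genes gave 12 cardiomyocyte-like clusters. Other cell cycle genes, such as histone genes and CCNA2, stayed in. Over these clusters each member had its own order. TCAP was highest in cluster 4 (led by IRX1 and LMOD2), at 353 CPM, and lowest in cluster 8 (led by histone genes), at 78.5 CPM, a 4.50-fold range. Between these, cluster 1 (NR2F2 and NPPA) had 323 CPM and cluster 3 (DDIT4 and HEY1) 322 CPM, which overlapped within counting error. CSRP3 spanned 5.00-fold, with 943 CPM in cluster 1 and 189 CPM in cluster 2 (LRRN3 and ANGPT1). NEXN spanned 3.43-fold, and its highest level, 787 CPM, was in cluster 11 (SHOX2 and ISL1), against 229 CPM in cluster 3. In the same cluster 11 TRIM55 reached 297 CPM, where its lowest level was 97.5 CPM in cluster 9 (UBE2C and CDC20). The orders thus set NEXN, TRIM55 and MYOM1 highest in the SHOX2-led cluster, in which TCAP had 102 CPM, its lowest level outside cluster 8.

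LDB3, ACTN2 and MYOZ2 were highest in cluster 1, at 581 CPM, 655 CPM and 295 CPM. Their lowest levels were 319 CPM for LDB3 in cluster 7 (MT3 and ENO2), and 319.7 CPM for ACTN2 and 111 CPM for MYOZ2 in cluster 12 (CRHBP and HOXB1). TMOD1 varied least, 1.74-fold, with 236 CPM in cluster 2 and 136 CPM in cluster 11. MYOM1 ranged 2.20-fold, with 418 CPM in cluster 11 and 413 CPM in cluster 4 at the top and 190.1 CPM in cluster 9 at the bottom. MYOM2 spanned 32.1-fold (22.6 to 46.1): 45.3 CPM in the 199 cells of cluster 12, 25.1 CPM in cluster 4, 20.6 CPM in cluster 1, and between 1.41 and 5.25 CPM in the other 9. Of 11 neighbouring pairs in each order, 3 for NEXN and 8 for MYOM2 and TMOD1 had overlapping intervals.

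Each cluster was also set against all other cardiomyocyte-like cells. In cluster 1, 5 of 9 members were higher and none lower, where 6.54% of genes were higher and 4.09% lower: NEXN, CSRP3, TRIM55, MYOM1 and ACTN2, between 1.55- and 2.32-fold. In cluster 4, TCAP, CSRP3 and MYOM1 were higher, 3 of 9 with none lower, where 8.97% of genes were higher and 5.11% lower. Calls in both directions appeared in cluster 11, where NEXN, TRIM55 and MYOM1 were higher and TCAP and CSRP3 lower, 3 and 2 of 9, beside 19.6% of genes higher and 9.61% lower. In cluster 12 TCAP, CSRP3 and MYOZ2 were lower, 3 of 9 with none higher, beside 7.53% of genes lower and 18.3% higher. MYOM2, outside these counts, was below its level in all other cells in the 9 clusters where it was low, for example in cluster 2 with 1.41 CPM, against 8.80 CPM elsewhere. TCAP, CSRP3 and MYOZ2 were also lower in cluster 2, 3 of 9 with none higher, where 4.66% of genes were lower and 0.811% higher.

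TCAP and CSRP3 were the 2 of 9 members lower in cluster 8, where 4.02% of genes were lower and 8.78% higher, and in cluster 9, where 2.17% were lower and 5.92% higher. NEXN was the 1 member called in cluster 3, and it was lower, where 5.86% of genes were lower and 1.56% higher. It was also the 1 lower in cluster 6, where 4.07% were lower and 1.1% higher. CSRP3 was the 1 member called in cluster 7, 1.72-fold higher, where 5.42% of genes were higher and 15.2% lower. No member was called in cluster 5 (2.33% of genes higher, 5.13% lower) or in cluster 10 (0.384% higher, 11.5% lower). Cluster 10, the deepest with a median of 32552 UMIs, was led by COL3A1, LUM and GPC3. These clusters come from the same cells, so their counts are descriptions.

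**Figure D3:**
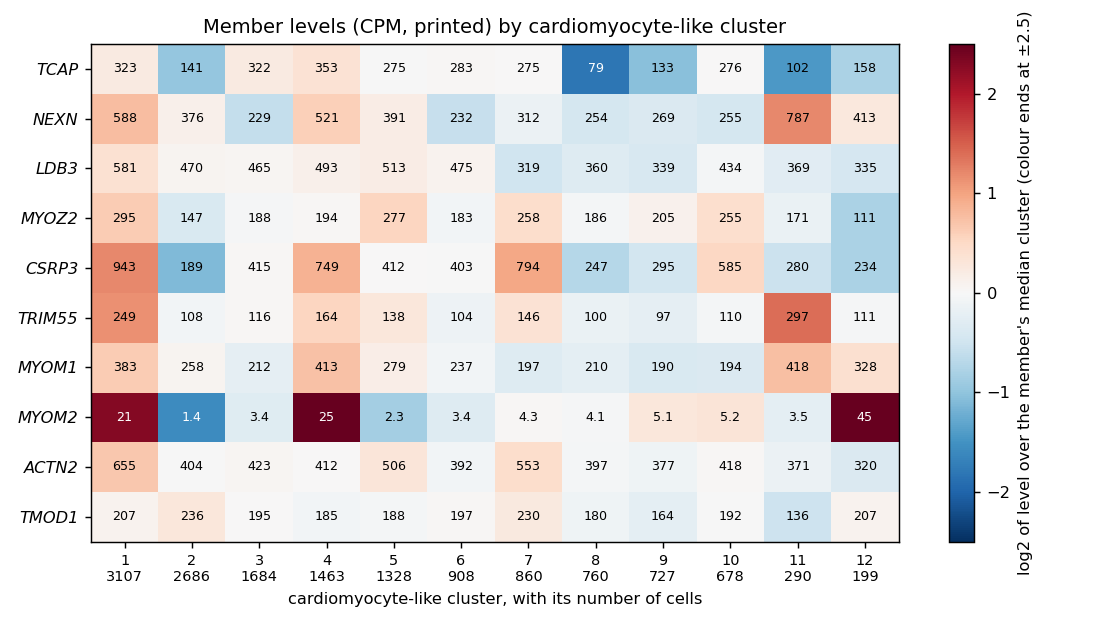
CPM of each member (printed in each cell of the map) in the 12 cardiomyocyte-like clusters, coloured by the log2 of the level over that member's median cluster, with the colour scale ending at 2.5 in either direction. TCAP and CSRP3 are low in clusters 2, 8, 9, 11 and 12, NEXN and TRIM55 are high in clusters 1 and 11, and MYOM2 is high in clusters 12, 4 and 1, reaching 45.3 CPM in cluster 12.

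Dividing cells were examined next. After thinning to 3000 UMIs, 2145 cardiomyocyte-like cells had UMIs of at least 3 of 32 mitotic genes (442 had exactly 3) and 5675 non-cycling cells had none and under 3 of 34 S phase genes. Median depth was 17956 UMIs in mitotic and 12141 UMIs in non-cycling cells. Most mitotic cells, 663 and 703, lay in clusters 8 and 9, which held no non-cycling cell. Cluster 8 was led by histone genes with RRM2 and CLSPN of the S phase list, and cluster 9 by UBE2C and CDC20. The set called mitotic is thus named for its 32 genes and also takes in cells with S phase transcripts. TCAP had 78.5 CPM in cluster 8 and 133 CPM in cluster 9. The sum of cardiomyocyte markers was 49446 CPM in mitotic and 57091 CPM in non-cycling cells, so both sides carried cardiomyocyte transcripts.

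TCAP differed most: mitotic cells had 137 CPM and non-cycling cells 284 CPM, which is 2.07-fold lower (2.01 to 2.13). CSRP3 was the second member called, with 329 CPM in mitotic and 551 CPM in non-cycling cells (1.67-fold lower, 1.64 to 1.71). These 2 of 9 measured members compare with 2.35% of 8513 genes called lower, and no member was higher, where 6.81% of genes were. NEXN (1.48-fold lower, 1.45 to 1.51) and TRIM55 (1.47-fold lower, 1.42 to 1.52) lay just inside the threshold. MYOM1 was 1.41-fold, LDB3 1.35-fold, ACTN2 1.24-fold and TMOD1 1.23-fold lower. MYOZ2 stood nearly level, with 207 CPM in mitotic and 218 CPM in non-cycling cells (1.05-fold lower, 1.02 to 1.08). MYOM2, not measured, had 5.16 CPM in mitotic and 7.88 CPM in non-cycling cells. The members' median ratio was 0.712, against 0.993 over all genes.

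The 2 called members held inside hashtags. TCAP was at least 1.5-fold lower in mitotic cells in 12 of 12 hashtags, with a median of 2.63-fold and within-hashtag ratios between 0.261 and 0.607. CSRP3 was below 1 in 12 of 12 and past the threshold in 8. NEXN, LDB3, TRIM55, MYOM1, ACTN2 and TMOD1 were also below 1 in 12 of 12, MYOM2 in 9 and MYOZ2 in 8. Beside this split, the sum of stromal markers was 61.2 CPM in mitotic and 47.2 CPM in non-cycling cells, and the sum of epithelial markers was 657 CPM and 683 CPM. In cells with no UMI of the rarer markers of other classes, TCAP's ratio was 0.421 and CSRP3's 0.589, as low as in all cells.

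The S phase set, 2204 cells with at least 3 S phase genes and at most 1 mitotic gene, differed less from non-cycling cells. It held 39 of the 760 cells of cluster 8, led by histone genes, while the mitotic set held 663 of them. In that cluster TCAP was at 78.5 CPM. The S phase set thus does not stand for every cell with S phase transcripts. TCAP had 237 CPM in S phase and 284 CPM in non-cycling cells (1.20-fold lower), and the other measured members lay between 0.884 and 0.993. No member was called higher or lower, beside 0.827% and 0.0243% of 8222 genes. Against S phase cells, mitotic cells had TCAP lower, with 137 CPM and 237 CPM (1.73-fold lower, 1.67 to 1.78), the 1 member called of 9, beside 1.07% lower and 5.19% higher of 8496 genes. CSRP3 was 1.49-fold lower in mitotic than in S phase cells.

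Levels were also read along the number of mitotic genes per cell, in 6 bins from 0 to 15 or more, which held 6972, 5176, 900, 523, 376 and 346 cells. TCAP had 276, 257, 175, 142, 113 and 61.6 CPM along these bins, so that the last bin was 4.48-fold lower than the first (4.08 to 4.94). CSRP3 had 542, 492, 395, 327, 265 and 241 CPM, a 2.25-fold difference (2.14 to 2.36). Both were lower at each of the 5 steps, as were LDB3, ACTN2 and TMOD1, whose last bins were 1.58-, 1.34- and 1.37-fold lower. MYOZ2 had 216, 221, 227, 205, 198 and 174 CPM, and was thus highest in the third bin and 1.24-fold lower in the last than in the first. NEXN was 1.57-fold, TRIM55 1.66-fold and MYOM1 1.45-fold lower in the last bin. The 15 sarcomere reference genes summed to 55260 CPM in the last bin and 72127 CPM in the first, 1.31-fold lower. Bins share the cells of 1 pool and the upper bins were deeper, with medians of 15208 to 20126 UMIs from the third bin on against 12183 UMIs in the first.

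**Figure D4:**
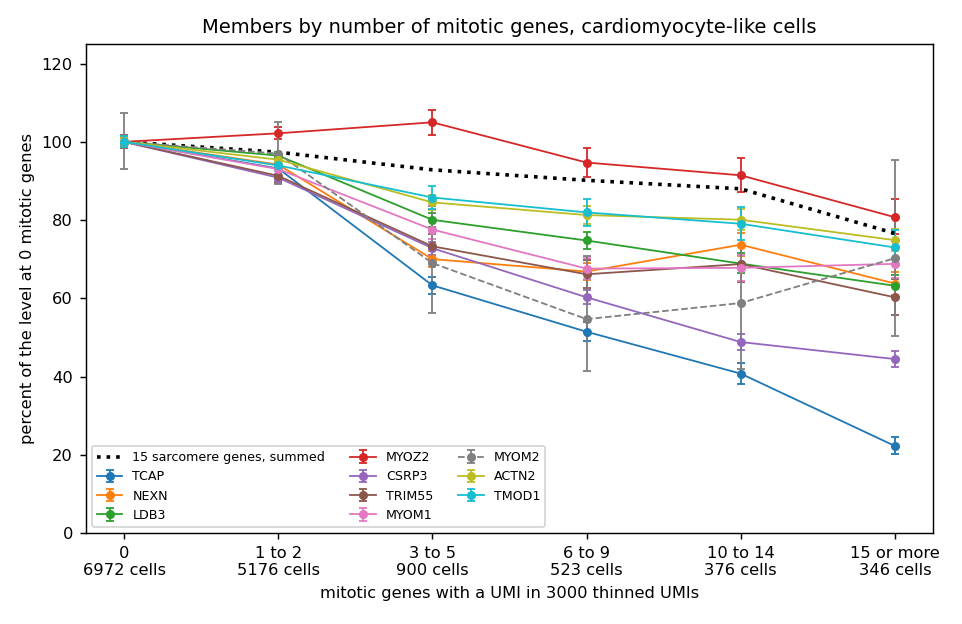
Level of each member as a percent of its level in cells with no mitotic gene, by the number of mitotic genes with a UMI in 3000 thinned UMIs, with 95% counting intervals. The black dotted line is the sum of 15 sarcomere genes. TCAP ends lowest, at 61.6 CPM from 15 mitotic genes on, against 276 CPM at 0, followed by CSRP3, and MYOZ2 ends highest.

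Inside the chamber subsets the mitotic comparison gave unlike orders. In HEY2-positive cells (911 mitotic, 2350 non-cycling) TCAP had 129 CPM in mitotic and 285 CPM in non-cycling cells (2.21-fold lower), CSRP3 was 1.60-fold lower, and NEXN, TRIM55 and MYOM1 were 1.31-, 1.32- and 1.27-fold lower. In NR2F2-positive cells (303 and 652) TRIM55 had the largest difference outside MYOM2, with 128 CPM in mitotic and 265 CPM in non-cycling cells (2.07-fold lower), followed by NEXN (1.93-fold), MYOM1 (1.66-fold) and CSRP3 (1.58-fold), while TCAP was 1.42-fold lower. In IRX1-positive cells (222 and 621) TCAP had 221 CPM in mitotic and 296 CPM in non-cycling cells (1.34-fold lower), NEXN and MYOM1 were 1.52- and 1.59-fold lower, and MYOZ2 was at 211 CPM and 200.2 CPM. The differences between subsets were not tested.

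Partner genes in mitotic against non-cycling cells were lower in 5 of 22 measured Z-disc genes, 2 of 13 of thin filament ends and the nebulin family, 0 of 18 of the M-band and 0 of 13 non-muscle relatives, and none of them was higher. The lists' median ratios, in the same order, were 0.801, 0.959, 0.776 and 0.935, against 0.993 over all genes. The M-band list was thus shifted down without a call. KLHL41, a Kelch protein of muscle, had 38.4 CPM in mitotic and 83.7 CPM in non-cycling cells (2.18-fold lower), SYNPO2L was 1.78-fold and ANKRD1 1.66-fold lower. The leiomodins LMOD2 and LMOD1 were 2.20- and 1.73-fold lower. Of the 15 sarcomere reference genes, TNNI3, the adult cardiac troponin I (1.85-fold), and ACTA1, skeletal actin (1.51-fold), were lower in mitotic cells. The median ratio of these 15 genes was 0.860.

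Hashtags could be given to 7307 cardiomyocyte-like cells, and since no label says what they mark, they are described by their values alone. CSRP3 varied most of the well-counted members: Hashtag10 had 103 CPM, the median was 494 CPM and Hashtag2 had 787 CPM, a 7.64-fold range. TCAP had 80.2 CPM in Hashtag10, a median of 221 CPM and 323 CPM in Hashtag6 (4.03-fold). Both genes were thus lowest in Hashtag10, where 29.1% of cardiomyocyte-like cells were mitotic and 55.5% lay in cluster 2. In non-cycling cells only, Hashtag10 was still lowest, with 108 CPM of TCAP and 121 CPM of CSRP3, against 388 CPM and 914 CPM in Hashtag8, the highest (3.60- and 7.54-fold). In HEY2-positive cells only, TCAP ranged 4.21-fold and CSRP3 6.77-fold, again from Hashtag10 upward.

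NEXN was lowest in Hashtag6, at 256 CPM, and highest in Hashtag1, at 709 CPM, with a median of 390.2 CPM. MYOZ2 had 106 CPM in Hashtag7, a median of 213 CPM and 269 CPM in Hashtag9 (2.54-fold), and TRIM55 94.4 CPM in Hashtag10, 145 CPM at the median and 221 CPM in Hashtag15 (2.35-fold). MYOM1 (1.82-fold, 207 CPM in Hashtag5 to 377 CPM in Hashtag2), ACTN2 (1.73-fold) and TMOD1 (1.47-fold) varied less, and LDB3 least, between 429 CPM in Hashtag12 and 556 CPM in Hashtag14 (1.30-fold). MYOM2 ran between 1.17 CPM (9 counts) in Hashtag10 and 24.2 CPM (109 counts) in Hashtag14, and its other high values were 17.0 CPM in Hashtag15, 16.2 CPM in Hashtag2 and 12.7 CPM in Hashtag1. Hashtag14 and Hashtag15 had 77.1% and 71.5% of their cardiomyocyte-like cells in cluster 1, and Hashtag1 and Hashtag2 had 33.6% and 41.9% IRX1-positive cells. Cluster makeup thus differed between hashtags along with the levels. CSRP3 had 103 CPM in Hashtag10, and 189 CPM in cluster 2, its lowest cluster, over all cells of that cluster. The part of cluster makeup in the members' ranges, that of CSRP3 included, was not tested.

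Of the 9 members among 7946 genes counted well enough in every hashtag, 5 had at least a 2-fold range, as did 23.9% of those genes. At least a 1.5-fold range was found for 7 of the 9 and for 65.6% of the genes, and the median gene ranged 1.63-fold. CSRP3's range was wider than that of 99.2% of these genes and TCAP's wider than 97.4%, while LDB3's was wider than 8.41%.

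**Figure D5:**
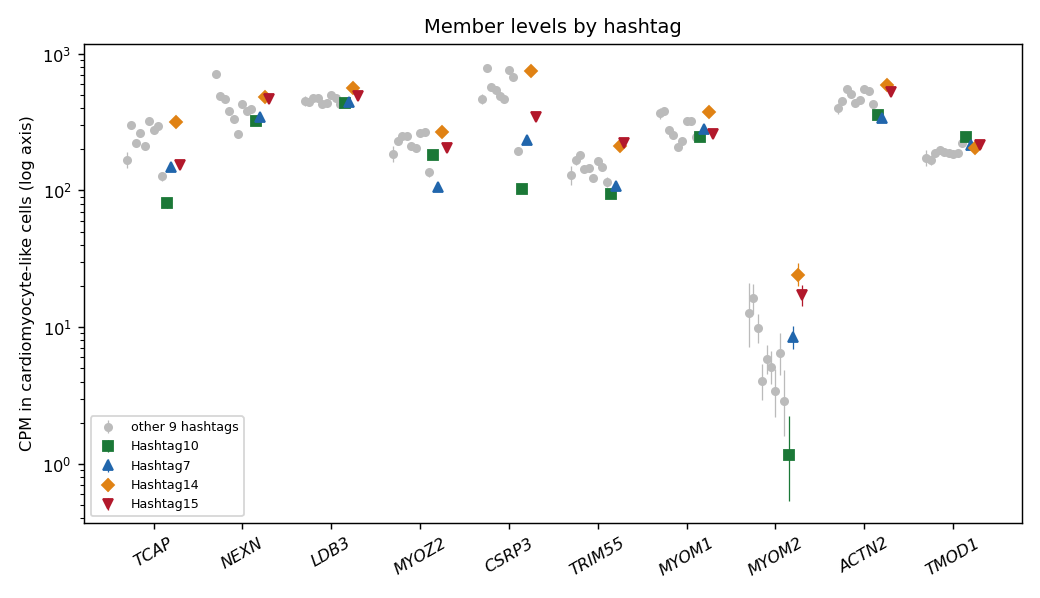
CPM of each member in cardiomyocyte-like cells of the 13 hashtags (log axis), with 95% counting intervals. Hashtag10 is lowest for TCAP, CSRP3, TRIM55 and MYOM2, Hashtag14 is highest for LDB3, MYOM2 and ACTN2, and LDB3 values lie closest together, between 429 and 556 CPM.

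Single cells were last compared with each other within 2350 non-cycling HEY2-positive cells. Over the 45 pairs of members, CSRP3 and TCAP had the highest Pearson correlation of their log values, 0.302, followed by ACTN2 and CSRP3 (0.156) and CSRP3 and MYOZ2 (0.148). The pair was picked out after its value was seen. In non-cycling cells of 12 single hashtags its correlation lay between 0.183 and 0.526, and it ranked first of all pairs in 9. The cells share 1 library, and correlations of sparse counts are low at this depth, so these values only describe it.

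Over the 12 clusters, each member was also compared with 2668 protein-coding genes of at least 50 CPM, the members themselves left out, by the Pearson correlation of log2 CPM. Clusters share the library and differ in depth, so the values are descriptions. Among these, CSRP3 was most like FLNC, which encodes the Z-disc crosslinker filamin C (0.880), and LDB3 most like MYBPC3, which encodes myosin-binding protein C (0.840). MYOZ2 and ACTN2 were both most like EIF1B (0.941 and 0.831), with the Z-disc genes CRYAB and XIRP1 among their closest 3. MYOZ2 and ACTN2 correlated with each other at 0.841, below NEXN with MYOM1 (0.912) and NEXN with TRIM55 (0.873). TRIM55 went with the calcium transport genes SLC8A1 (0.918) and ATP2A2 (0.892), and with CDH2. NEXN was most like RBM5 (0.977), MYOM1 like FILIP1 (0.963), MYOM2 like JUND (0.936), TCAP like SLC25A23 (0.885) and TMOD1 like the muscle glycogen phosphorylase PYGM (0.838).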

How the data were processed

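A single matrix of raw UMI counts was deposited, with 36601 genes and 13 hashtags in 24038 barcodes, made with Cell Ranger 4.0.0 per the file headers and the build hg38 per the submitters' processing notes. It holds 0 columns of other series. Kept were 21623 barcodes that reached 500 genes and 1000 UMIs with mitochondrial UMIs no higher than 25%. Scrublet (scanpy 1.11.5) marked 2314 as doublets (10.7%, against an expected 17.3%), which were removed. Clusters (leidenalg 0.10.2, resolution 0.6, 30 components, 15 neighbours) were made without members, partners, sarcomere, listed mitotic and S phase, ribosomal and mitochondrial genes. They were named from marker lists and 10 leading genes.

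UMIs were summed per group as CPM, with exact Poisson, binomial and Clopper-Pearson intervals (scipy 1.17.1). No test was run: the labels give 1 pooled sample and do not say what the hashtags mark, so hashtags were not taken as replicates. Hashtags needed 70% of at least 20 hashtag UMIs. Members, lists and comparisons were chosen with earlier results of these data known. The naming of 1 cluster as unnamed, 3 added alternatives (no UMI of rarer markers of other classes, no deepest cluster, HEY2-positive cells per hashtag) and the CSRP3-TCAP pair were chosen after values were seen. Named partners are up to 3 per list and direction with the largest ratio past 1.5, and named like genes the 3 best correlated per member. MURC is an older symbol of the listed CAVIN4 and was absent. On simulated data for the mitotic comparison, all 50 genes at each of 4 true folds (2, 4, 0.5 and 0.25) and 0 of 8036 unchanged genes were called, over 8236 genes. The simulated counts carried counting error alone, without variation between cells, hashtags or cultures. They therefore cannot show how often such variation would lead to a call.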

Additional observations from a re-analysis of the deposited data

How the results depend on the processing

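The labels give no replicate numbers, so no replicate block was used. The alternatives tried were no cell filter, a stricter one (1000 genes, 2000 UMIs, mitochondrial share up to 15%), the expected share of doublets removed, resolutions 0.4 and 1.0, 1 UMI more per marker, markers counted in 5000 thinned UMIs, at least 5 mitotic genes, all cells under 3 mitotic genes as reference, TMM scaling (edgeR 4.0.16), equal weight per cell, medians within hashtags, 90% of hashtag UMIs, and the 3 added ones. Not every alternative bears on every comparison. In each one run for the comparison concerned, 9 members were higher in cardiomyocyte-like cells, MYOM2 alone was called in IRX1-positive cells, no member was called in S phase against non-cycling cells, and 6 members, MYOM2 among them, varied at least 2-fold over hashtags (in HEY2-positive cells MYOM1, at 2.04, in place of TRIM55, at 1.61). Of 1000 values of single members under an alternative, 635 stayed within the counting interval, 365 moved outside it and 0 of the called ones changed direction.

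The counts here include MYOM2 where it was measured. In NR2F2-positive against HEY2-positive cells, 5 members were higher by within-hashtag medians, not 3, and 1 (TCAP, ratio 0.659) was lower with thinned markers, not 0. NEXN there was 1.40 under TMM scaling and 1.48 under the stricter filter, both under the threshold. In SHOX2-positive against HEY2-positive cells, 1 member was lower in the 1 hashtag with enough cells, and NEXN was 1.45 under the stricter filter. In SHOX2-positive against NR2F2-positive cells, 1 member was lower, but 0 with no filter or the stricter filter, 2 with 1 UMI more per marker, and 3 with the expected doublets removed, thinned markers, no deepest cluster, TMM scaling or equal weights. In mitotic against non-cycling cells, 4 members were lower from 5 mitotic genes on, not 2. TCAP's ratio ranged over 0.381 to 0.513 and CSRP3's over 0.527 to 0.633. In mitotic against S phase cells, 2 members were lower, not 1, with the expected doublets removed, no UMI of rarer markers, 5 mitotic genes, no deepest cluster, equal weights and within-hashtag medians. The cause of these shifts was not tested.

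TMM scaling multiplied every ratio of cardiomyocyte-like to other cells by 1.32 (0.40 on the log2 scale), of SHOX2-positive to HEY2-positive cells by 0.895 (-0.16) and of NR2F2-positive to HEY2-positive cells by 0.917 (-0.13), and no member changed side of 1. Using only cells with no UMI of any marker of another class was not run for 6 comparisons, since under 20 cells were left on a side. MYOM2 rests on few counts throughout, and 1 pool cannot show how far any value would vary between cultures.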
